A study of Oryza sativa with 8 samples.

Results

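The PR10 and PR1 genes of rice are classical markers of a defence response. They were followed here in plants labelled as a knockdown of RNA polymerase IV. A set of 6 genes was taken by Os number: RSOsPR10 (Os12g0555000), PR10b (Os12g0555200), PBZ1 (Os12g0555500), JIOsPR10 (Os03g0300400), PR1a (Os07g0129200) and PR1b (Os01g0382000). The table used held 5 of these 6 genes, in 9 of its 43897 rows, and PR1b is not analysed here. Rows of the same name were summed, which gave 6 entries of 30154 in all. PR10b and PBZ1 are also merged with Os12g0555400 in 1 joined row, whose reads are not separated between the 3 genes. The genes were chosen by Os number with their FPKM in these 4 groups, and the knockdown contrasts made from it, already known, so their values are descriptions.

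The groups were nrpd1 knockdown anther, wild-type (WT) anther, nrpd1 knockdown pre-emerged panicle and WT pre-emerged panicle, with 2 libraries in each by the labels. All plants were of the indica cultivar Pusa Basmati 1 (PB1), grown in a greenhouse, and anthers were taken before they opened. NRPD1 is the largest subunit of RNA polymerase IV, which makes the precursors of the small RNAs that guide DNA methylation in plants. The labels do not give the knockdown construct or say how many lines were used, and the NRPD1 genes were not analysed here. The table holds 1 FPKM value (fragments per kilobase of transcript, scaled to sequencing depth) per gene and group. No difference below therefore has a replicate check or a p-value, and no order of levels can be set against a spread.

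PR10 proteins are small intracellular proteins of the Bet v 1 fold. Several are induced by pathogens, wounding, salt or jasmonate. In rice, PBZ1 was named for its induction by probenazole, a compound used to protect rice against blast disease, and it is also used as a marker of cell death. RSOsPR10 is best known from roots under salt and drought, and JIOsPR10 is inducible by jasmonate. PR1 proteins are small, cysteine-rich secreted proteins, and their transcripts are widely used markers of salicylate-dependent defence.

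Knockdown anther stood apart from the other groups at the PR10 cluster on chromosome 12. RSOsPR10 and the joined row of PR10b and PBZ1 were both far higher there than in WT anther. JIOsPR10, a PR10 gene on chromosome 3, was lower in knockdown anther. In panicle no PR10 or PR1 entry was higher in the knockdown, and PR1a and the joined row were lower.

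The joined row (chromosome 12, 22591680 to 22601855, build not stated) had 2448 FPKM in knockdown anther and 16.02 FPKM in WT anther. The same row had 32.3 FPKM in knockdown panicle and 78.1 FPKM in WT panicle. It was thus highest in knockdown anther and lowest in WT anther, with both panicle groups in between. In knockdown anther it ranked 4 among all entries by FPKM and made up 0.717% of the summed FPKM of that group, whereas it ranked 5635 in WT anther. The anther values differed 153-fold, a log2 change of 7.17. Every change is given on the scale of log2(FPKM + 1), where genes of low FPKM appear to change less than their ratio shows.

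RSOsPR10 (chromosome 12, 22580641 to 22581939) had 359 FPKM in knockdown anther and 4.68 FPKM in WT anther. It had 2.49 FPKM in knockdown panicle and 5.53 FPKM in WT panicle. Knockdown anther alone was high, and the other 3 groups lay within a narrow range. The anther values differed 76.8-fold, a log2 change of 5.99. RSOsPR10 ranked 67 by FPKM in knockdown anther and 10927 in WT anther. Among the 17943 entries compared in anther, its log2 change was number 4 in size among increases, and that of the joined row was number 2.

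**Figure D1:**
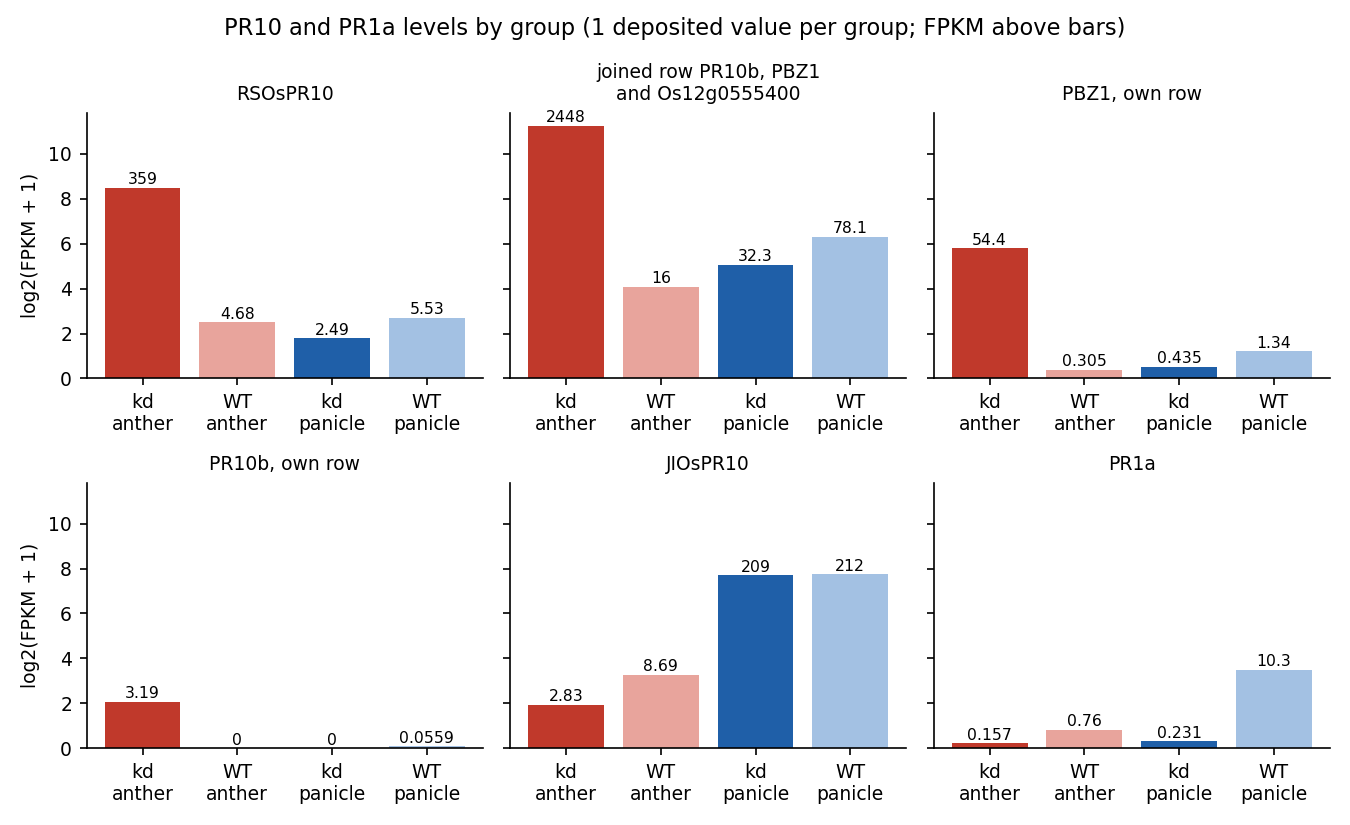
Level of each PR10 and PR1a entry as log2(FPKM + 1) in nrpd1 knockdown (kd) anther, WT anther, knockdown panicle and WT panicle; each bar is the 1 deposited value of a group, with its FPKM printed above. RSOsPR10, the joined row and the own row of PBZ1 are highest in knockdown anther (359, 2448 and 54.4 FPKM), where the own row of PR10b has 3.19 FPKM. JIOsPR10 is high in both panicle groups, and PR1a is highest in WT panicle.

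PBZ1 also has a row of its own at the same locus. It had 54.4 FPKM in knockdown anther, 0.305 FPKM in WT anther, 0.435 FPKM in knockdown panicle and 1.34 FPKM in WT panicle. This row was higher in knockdown anther by 5.41 on the log2 scale. In anther the PBZ1 row passed the minimum of 1 FPKM through the knockdown alone, so its call followed largely from it. PR10b alone had 3.19 FPKM in knockdown anther, was listed at 0 in WT anther and knockdown panicle, and had 0.0559 FPKM in WT panicle. Because it passed the minimum of 1 FPKM only in knockdown anther, its call there was largely fixed by that minimum, and no fold is given.

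The own row of PBZ1 moved in step with the joined row. It amounted to 2.22% of the joined row in knockdown anther, 1.91% in WT anther, 1.35% in knockdown panicle and 1.72% in WT panicle. Second rows at such levels are general in this table. Among genes with 2 rows and at least 10 FPKM in the stronger row, the fainter row's median share of the stronger row was 2.32% in knockdown anther (4869 genes), 2.28% in WT anther (5300 genes), 2.26% in knockdown panicle (5372 genes) and 2.37% in WT panicle (5226 genes). The second row of RSOsPR10 was at 2.94% of the first in knockdown anther and 2.54% in WT anther, where the first row had 4.56 FPKM, below that minimum. What the fainter rows count (another transcript or reads of the other strand) was not tested. The PBZ1 row is therefore not read as a gain separate from that of the joined row. With the joined row and the own rows of PBZ1 and PR10b summed, 97.7% of the FPKM in knockdown anther came from the joined row. The log2 change of this sum in anther was 7.18. Rows named for Os12g0555300 and for Os12g0555400 alone lie at the same locus and were left out, so 7.18 is not the change of the whole locus.

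**Figure D2:**
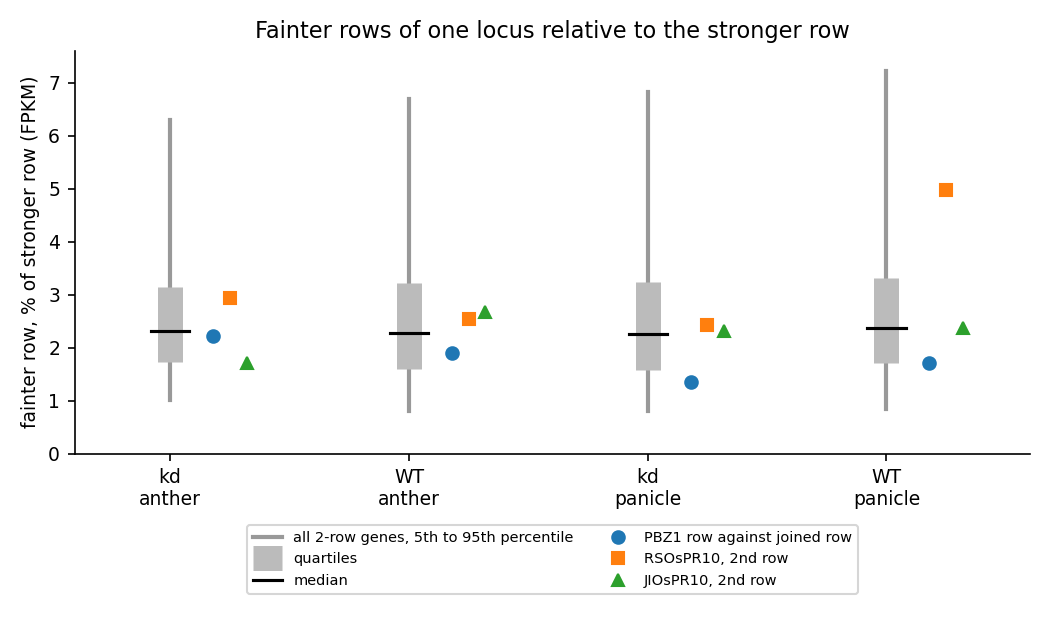
FPKM of the fainter row as a percentage of the stronger row, by group (kd, nrpd1 knockdown). Grey bars give the quartiles and lines the 5th to 95th percentile over all genes with 2 rows and at least 10 FPKM in the stronger one, and black ticks give the median; symbols give the PBZ1 row against the joined row and the second rows of RSOsPR10 and JIOsPR10. All symbols lie within the 5th to 95th percentile of their group, and the PBZ1 row lies between 1.35% and 2.22%. The stronger row of RSOsPR10 outside knockdown anther, and that of JIOsPR10 in both anther groups, was below the 10 FPKM required for the range.

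Os12g0555400, the remaining gene of the joined row, has rows of its own that ran the other way. They summed to 5.295 FPKM in knockdown anther and 40.9 FPKM in WT anther, a log2 change of -2.73. In panicle they summed to 10.05 FPKM in the knockdown and 10.6 FPKM in WT. So within 1 locus the joined row was higher, and the rows named for Os12g0555400 alone were lower, in knockdown anther. How the reads were divided between overlapping rows is not given in the sources used here, and its part in these opposite values was not tested.

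JIOsPR10 (chromosome 3, 10562230 to 10563448) had 2.83 FPKM in knockdown anther and 8.69 FPKM in WT anther. It had 209 FPKM in knockdown panicle and 212 FPKM in WT panicle. The gene was thus high in panicle and low in anther in both genotypes. In anther it was lower in the knockdown by 3.07-fold, a log2 change of -1.34, while in panicle the change was -0.02. The anther call did not hold when every column was scaled to the same total FPKM, where the change was -0.60. JIOsPR10 was the most abundant of the 6 entries in both panicle groups, ranking 263 among all entries in the knockdown and 201 in WT.

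PR1a (chromosome 7, 1512024 to 1512958) had 0.157 FPKM in knockdown anther and 0.76 FPKM in WT anther, both below 1 FPKM, and was not compared there. In panicle it had 0.231 FPKM in the knockdown and 10.3 FPKM in WT. It was lower in knockdown panicle by 44.7-fold, a log2 change of -3.20, and WT panicle was the single group in which it exceeded 1 FPKM. The fold thus rests on a knockdown value below 1 FPKM, and the call passed the minimum through WT panicle alone. With a mean of at least 5 FPKM required, PR1a was no longer called. The panicle change of PR1a was number 294 in size among decreases over 18655 entries compared.

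Counted over the entries, 4 of the 6 were higher in knockdown anther, 1 was lower and 1 was not compared, where a call needs a log2 change of 1 or more and an FPKM of 1 or more in either group. The 4 higher entries come from 2 loci that lie 9.74 kb apart, and 3 of them overlap. As the background, 7.37% of all compared entries were higher and 17.6% were lower in knockdown anther. Of the 3 entries with at least 1 FPKM in both anther columns, 2 were higher and 1 was lower (all entries 5.34% and 16.7%). In panicle 2 of the 6 entries were lower in the knockdown, 3 lay within the threshold and 1 was not compared, against a background of 10.7% lower and 13.2% higher. The genes were proposed with these contrasts known, so nothing is read from any of these counts. The 3 panicle entries within the threshold were JIOsPR10, RSOsPR10 (-0.90) and the PBZ1 row (-0.70). With a pseudocount of 0.1 the changes of RSOsPR10 and the PBZ1 row passed it, at -1.12 and -1.43.

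**Figure D3:**
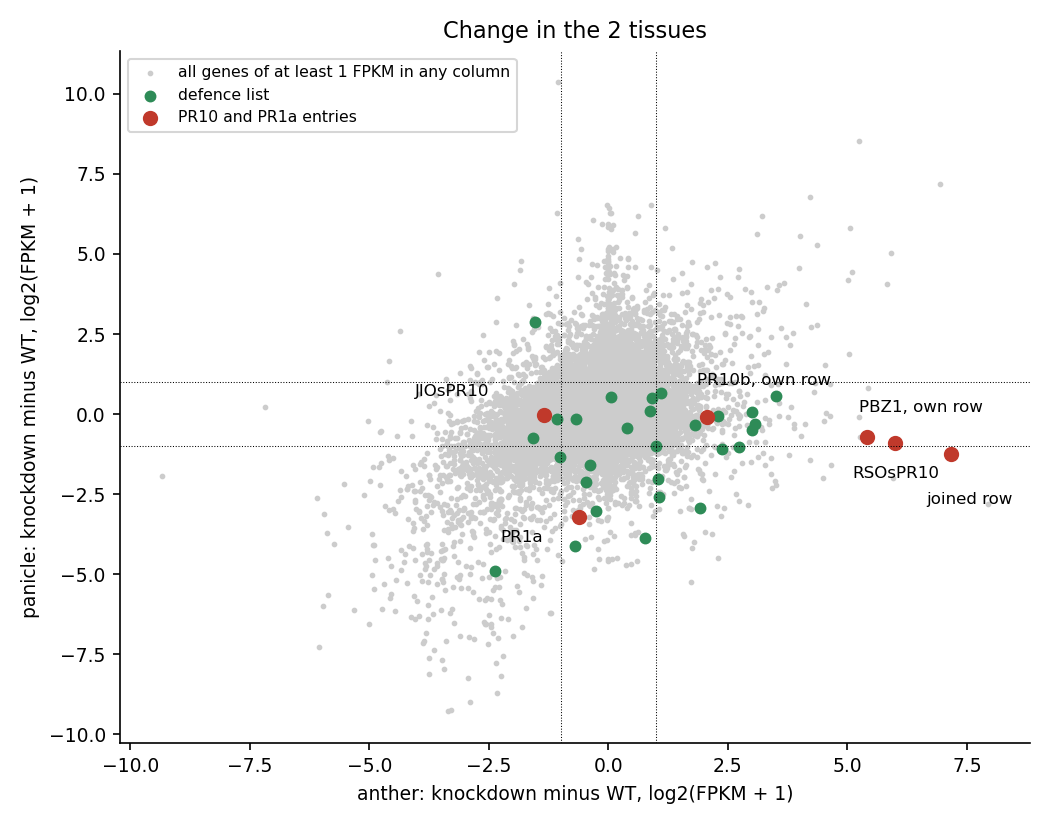
Change in panicle (vertical) against change in anther (horizontal), each nrpd1 knockdown minus WT in log2(FPKM + 1), for all gene entries of at least 1 FPKM in any column (grey), the defence list (green) and the PR10 and PR1a entries (red); dotted lines mark changes of 1. The joined row, RSOsPR10 and the PBZ1 row lie at the far right between 5.41 and 7.17 in anther with panicle changes from -1.25 to -0.70, and PR1a lies low at -3.20 in panicle.

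The scale between columns bears on weak changes. Summed FPKM was 341703 in knockdown anther, 636692 in WT anther, 428187 in knockdown panicle and 382488 in WT panicle. The median log2 change over all compared entries was -0.15 in anther and -0.03 in panicle. Scaling to equal totals moved these medians to 0.62 and -0.17, and quantile normalization moved the anther median to 0.08. The anther changes of RSOsPR10 and the joined row stayed between 5.99 and 8.096 over the scalings tried, and the panicle change of PR1a between -3.40 and -3.19.

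The tissue difference of the joined row had opposite directions in the 2 genotypes. In the knockdown the joined row was 75.8-fold higher in anther than in panicle (log2 6.20), whereas in WT it was lower in anther by 4.87-fold (log2 -2.22). RSOsPR10 was 144-fold higher in anther than in panicle in the knockdown (log2 6.69), and in WT it differed by -0.20 on the log2 scale. JIOsPR10 was lower in anther than in panicle by 73.9-fold in the knockdown and by 24.4-fold in WT. PR1a was lower in anther by 13.6-fold in WT, where its anther value was below 1 FPKM, and was below 1 FPKM in both knockdown groups. For all entries, 14.0% were higher and 22.5% lower in anther in the knockdown, and 20.4% higher and 18.1% lower in WT. These contrasts share their columns with the knockdown contrasts above.

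Cell type markers, listed by Os number from general knowledge, differed between the groups as well. A list of 11 tapetum genes (the nutritive layer of the anther wall) summed to 588 FPKM in knockdown anther, 90.1 FPKM in WT anther, 1515 FPKM in knockdown panicle and 21.1 FPKM in WT panicle. In anther 3 of the 6 compared were higher and none lower in the knockdown (all entries 7.37% and 17.6%), and in panicle 8 of the 10 compared were higher and none lower (all entries 13.2% and 10.7%). Of these 8, Os07g0549600, Os04g0599300, Os08g0131100, Os03g0168600 and Os09g0449000 were below 1 FPKM in WT panicle. Their calls passed the minimum through knockdown panicle alone and followed largely from it. Most of the tapetum sum came from Os11g0582500 and Os08g0496800. The other 9 genes summed to 90.2 FPKM in knockdown anther and 75.04 FPKM in WT anther, and to 46.2 FPKM in knockdown panicle and 14.1 FPKM in WT panicle. A list of 5 late pollen genes summed to 1342 FPKM in knockdown anther, 9937 FPKM in WT anther, 0.472 FPKM in knockdown panicle and 602 FPKM in WT panicle, and all 4 compared were lower in the knockdown in each tissue (all entries 17.6% lower in anther and 10.7% in panicle). In knockdown panicle these 4 late pollen genes were at 0.168 FPKM or less, so they passed the minimum there through WT panicle alone. Of the marker genes found, Os01g0293100 and Os03g0168600 (tapetum) were listed at 0 in WT panicle and Os03g0106500 (late pollen) in knockdown panicle. In bulk tissue fewer cells of a type and less RNA per cell cannot be told apart, and the part of these shifts in the PR10 values was not tested.

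Both green tissue genes of the list were lower in knockdown panicle, as PR1a was (all entries 10.7% lower). Os12g0274700 had 3.01 FPKM in knockdown panicle and 21.9 FPKM in WT panicle, and Os09g0346500 had 3.23 FPKM and 25.2 FPKM in the same groups. In anther only Os09g0346500 was compared, and it was called lower in the knockdown (all entries 17.6% lower). It had 0.0293 FPKM in knockdown anther and 1.12 FPKM in WT anther, so it passed the minimum through WT anther alone. The part of green tissue in the PR1a value was not tested. The spikelet gene Os03g0215400, the 1 gene found of 3 on that list, had 229 FPKM in knockdown panicle and 363 FPKM in WT panicle, against 6.90 FPKM in knockdown anther and 29.5 FPKM in WT anther.

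Genes next to the PR10 loci were taken by position alone, within 50 kb. Around the chromosome 12 cluster, which spans 21.2 kb, 10 other entries were present and 6 were compared in anther. Of these 6, Os12g0555300 was higher and Os12g0555400 lower in knockdown anther (all entries 7.37% higher and 17.6% lower). Os12g0555300 had 1.45 FPKM in knockdown anther against a listed 0 in WT anther. Os12g0555300 and Os12g0555400 lie inside the joined locus. The call of Os12g0555300 passed the minimum through knockdown anther alone and followed largely from it. Outside the cluster the 4 compared neighbours changed by -0.18 to 0.69 in anther. Os12g0554800, which ends 3249 bases before RSOsPR10, had 7.20 FPKM in knockdown anther and 5.60 FPKM in WT anther. In panicle the same neighbour was higher in the knockdown, at 16.1 FPKM against 2.30 FPKM in WT, a log2 change of 2.37.

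Around JIOsPR10, 14 entries were present and 11 were compared in anther, of which 4 were lower in the knockdown and none higher, where 17.6% of all compared entries were lower and 7.37% higher. The 4 were Os03g0299600 (-2.45), Os03g0300500 (-2.59), Os03g0300600 (-1.76) and Os03g0301400 (-1.49). Os03g0300500, which begins 1261 bases beyond JIOsPR10, had 7.20 FPKM in knockdown anther and 48.2 FPKM in WT anther, and it was also lower in panicle, listed at 0 in the knockdown and at 3.85 FPKM in WT. Os03g0300801 was higher in knockdown panicle (1.25). Around PR1a no other entry of the table used here began within 50 kb.

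**Figure D4:**
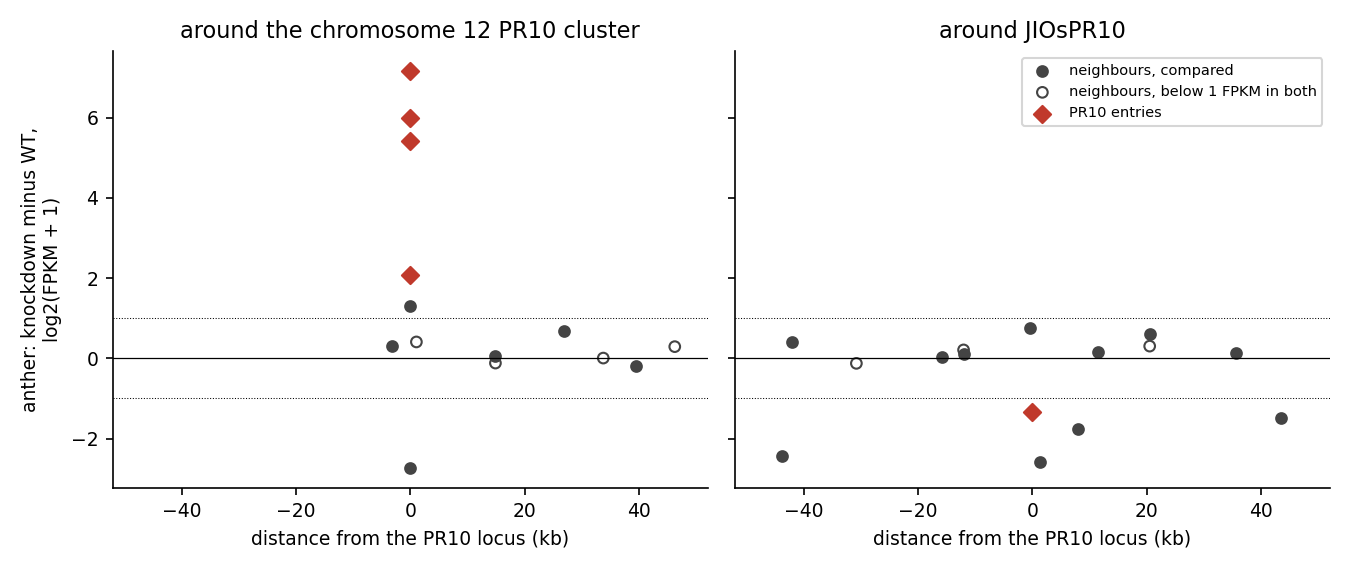
Anther change (nrpd1 knockdown minus WT, log2(FPKM + 1)) of gene entries within 50 kb of the chromosome 12 PR10 cluster (left) and of JIOsPR10 (right) against distance in kb; filled circles were compared, open circles were below 1 FPKM in both anther columns, and red diamonds are the PR10 entries, drawn at 0. The cluster's entries reach 7.17 while the compared neighbours outside it lie between -0.18 and 0.69.

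Other defence genes were counted from a list of 51 Os numbers written from general knowledge of rice, since the table does not annotate them; 40 were found. In anther 24 were compared, of which 13 were higher and 5 lower in the knockdown (all entries 7.37% and 17.6%). The median change was 1.02 against -0.15 for all compared entries. In panicle 25 were compared, of which 1 was higher and 12 were lower (all entries 13.2% and 10.7%), and the median was -0.99 against -0.03. Restricted to genes of at least 1 FPKM in both columns, 8 of 17 were higher and 4 lower in anther (all entries 5.34% and 16.7%), and none of 18 was higher and 8 were lower in panicle (all entries 11.8% and 6.30%). The list was compiled with the direction of the PR10 locus known, and these shares are a description.

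The group of other PR proteins (chitinases, glucanases, thaumatin-like and PR4-type proteins) was mostly higher in knockdown anther and lower in knockdown panicle. In anther 5 of its 6 compared genes were higher in the knockdown and none lower (all entries 7.37% and 17.6%). In panicle 8 of 9 were lower and none higher (all entries 10.7% and 13.2%), and 6 of 7 were lower among those of at least 1 FPKM in both panicle columns. Os05g0399300, which the table joins in part with a row named Cht9 (chitinase), had 59.4 FPKM in knockdown anther and 10.6 FPKM in WT anther, against 4.50 FPKM in knockdown panicle and 10.6 FPKM in WT panicle. Os05g0375400, listed as a glucanase, had 29.3 FPKM in knockdown anther and 7.64 FPKM in WT anther, and in panicle 16.7 FPKM in the knockdown and 21.2 FPKM in WT. Os11g0592000, listed as a PR4-type gene, had 91.7 FPKM in knockdown anther and 23.6 FPKM in WT anther, and in panicle 0.187 FPKM in the knockdown and 8.11 FPKM in WT. Os05g0399300 and Os11g0592000 were thus, like the joined PR10 row, called higher in knockdown anther and lower in knockdown panicle, while Os05g0375400 was called in anther only. Unlike the joined row, Os11g0592000 passed the minimum in panicle through WT panicle alone. The panicle call of Os05g0399300 was lost, at -0.98, when 7.33% of WT anther was subtracted from WT panicle. That percentage is the median level in WT panicle, relative to WT anther, of 180 genes whose WT anther value was 200 FPKM or more and 100 or more times their value in knockdown panicle.

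The remaining called genes of this group were Os12g0629700 (1.06 in anther, -2.59 in panicle) and Os03g0663400 (1.04 and -2.02), both listed as thaumatin-like. Os11g0592200 (-3.86), Os04g0493400 (-3.03), Os01g0940700 (-2.13) and Os01g0940800 (-1.58) were lower in knockdown panicle. In anther Os11g0592200 lay within the threshold (0.77). Os04g0493400, Os01g0940700 and Os01g0940800 were below 1 FPKM in both anther columns and were not compared there. Os01g0940700, in part a row joined with Os01g0944000, had 0.902 FPKM in knockdown panicle and 7.31 FPKM in WT panicle. It thus passed the minimum through WT panicle alone, and it is listed at the same locus as Os01g0940800.

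The other PR1-type genes did not follow one direction. Of 10 listed, 5 were found and compared, of which 1 was higher and 3 lower in anther and 1 higher and 2 lower in panicle (all entries 7.37% higher and 17.6% lower in anther, 13.2% and 10.7% in panicle). In anther Os10g0191300 was higher in the knockdown, at 7.26 FPKM against 0.0335 FPKM in WT, and those lower were Os12g0633400 (-2.38), Os02g0786500 (-1.53) and Os05g0595000 (-1.07), whose row joins it with Os05g0594800. Os10g0191300 passed the minimum through knockdown anther alone, so its call followed largely from it, and Os02g0786500 passed through WT anther alone. The anther call of Os05g0595000 was lost with median centring (-0.97), quantile normalization (-0.57) and equal totals (-0.20), and that of Os02g0786500 with equal totals (-0.95). In panicle Os01g0382400 had 1.73 FPKM in the knockdown and 46.9 FPKM in WT, a log2 change of -4.14 in the direction of PR1a. Os12g0633400 was also lower, listed at 0 in knockdown panicle and at 28.6 FPKM in WT panicle, while Os02g0786500 was higher (2.89). In panicle Os12g0633400 passed the minimum through WT alone and Os02g0786500 through the knockdown alone. Subtracting the anther share took Os12g0633400 to 0 in WT panicle too, which ended its panicle call.

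Genes listed for phytoalexin biosynthesis, which makes antimicrobial diterpenoids and flavonoids, stood at 1.06 FPKM or less outside knockdown anther, with the exception of Os01g0196300. Os04g0178300 had 4.31 FPKM in knockdown anther and 0.075 FPKM in WT anther. Os04g0178400 had 7.68 FPKM in knockdown anther and 0.0347 FPKM in WT anther. Os04g0179200, in part a joined row, had 6.32 FPKM in knockdown anther and 0.104 FPKM in WT anther, and Os02g0569900 had 7.08 FPKM and a listed 0 in the same groups. These 4 passed the minimum through the knockdown column, so that their calls followed largely from it. In panicle Os04g0179200 was lower, listed at 0 in the knockdown and at 1.06 FPKM in WT, so that it passed the minimum through WT panicle alone, and quantile normalization ended that call (-0.94). Os01g0196300 was lower in knockdown anther, at 4.84 FPKM against 16.4 FPKM in WT, a call lost with equal totals (-0.77), and the other 6 genes found were not compared in anther.

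Of the genes for phenylalanine ammonia-lyase, the entry enzyme of phenylpropanoid synthesis, 2 of 4 compared were higher in knockdown anther (all entries 7.37%) and none was called in panicle (all entries 13.2% higher and 10.7% lower). Os02g0626100, in part a joined row, had 549.6 FPKM in knockdown anther and 47.7 FPKM in WT anther, against 2903 FPKM in knockdown panicle and 1981 FPKM in WT panicle. Os02g0626400 changed by 1.09 in anther. Among defence signalling genes (receptors, NPR1 and WRKY factors) 1 of 4 compared was higher in knockdown anther and 1 lower (all entries 7.37% and 17.6%), and in panicle 1 of 5 was lower (all entries 10.7%). Os05g0343400 lay at the threshold (1.0002) in anther, and Os01g0194300 was lower in the knockdown in both tissues (-1.01 in anther and -1.34 in panicle). Its anther call was lost with median centring (-0.905), quantile normalization (-0.41) and equal totals (-0.13).

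**Figure D5:**
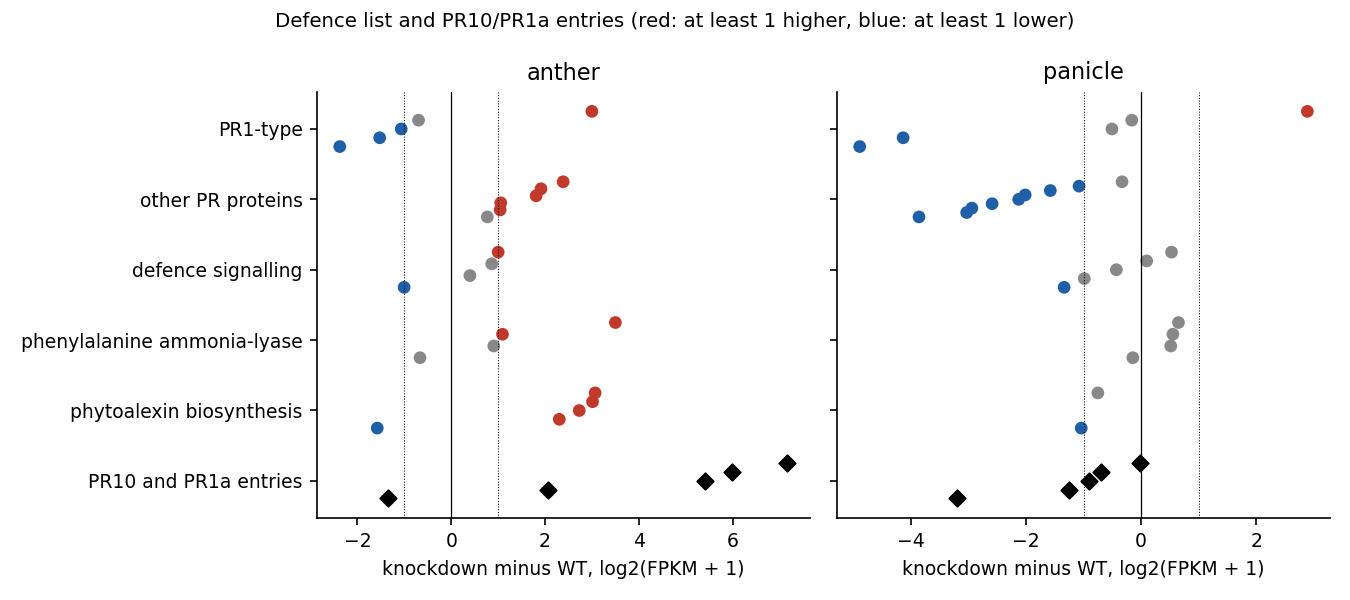
Change (nrpd1 knockdown minus WT, log2(FPKM + 1)) in anther (left) and panicle (right) of each compared gene of the defence list by group, with the PR10 and PR1a entries as black diamonds; red and blue mark changes of at least 1 upward and downward, grey marks smaller ones, and dotted lines mark 1. Among other PR proteins 5 of 6 are red in anther and 8 of 9 are blue in panicle, while PR1-type genes lie on both sides.

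The entries most like each PR10 or PR1a entry over the 4 groups were sought among 20316 others, by the distance between profiles of log2(FPKM + 1) centred on their own mean. With 4 values a profile holds little information, and the likeness is a description. Nearest to the joined row was Os02g0586900, with 336 FPKM in knockdown anther, 0.362 FPKM in WT anther, 0.637 FPKM in knockdown panicle and 10.4 FPKM in WT panicle (distance 1.27), followed by Os07g0638400 (1.71) and Os07g0638100 (1.95). Os07g0638400 was also the nearest to the PBZ1 row (0.603) and second nearest to RSOsPR10 (1.01). It had 37.6 FPKM in knockdown anther, 0.0184 FPKM in WT anther, a listed 0 in knockdown panicle and 0.0567 FPKM in WT panicle. Nearest to RSOsPR10 was a row joining Os02g0215900,Os02g0216000,Os02g0216150,Os02g0216200 (0.637), with 109 FPKM in knockdown anther and 1.88 FPKM in WT anther, and next after Os07g0638400 was Os08g0136700 (1.17). The PBZ1 row was next nearest to Os11g0514500 (0.708) and Os04g0483400 (0.799).

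For JIOsPR10 the nearest entries were Os11g0289700 (0.447), Os01g0971000 (0.524) and Os04g0493600 (0.570). Os01g0971000 had 9.87 FPKM in knockdown anther and 34.2 FPKM in WT anther, against 467 FPKM in knockdown panicle and 691 FPKM in WT panicle. For PR1a they were Os10g0524766 (0.368), Os04g0630400 (0.392) and Os03g0280400 (0.422). The last of these had 1.95 FPKM in knockdown panicle and 26.4 FPKM in WT panicle. For the own row of PR10b they were Os08g0155900 (0.0961), Os03g0233900 (0.128) and Os01g0557100 (0.195), each between 2.91 and 4.49 FPKM in knockdown anther.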

How the data were processed

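Messenger RNA was sequenced from 8 strand-specific libraries, 2 in each of 4 groups taken from the sample titles. The authors deposited 1 FPKM column per group, per the file headers, with 43897 rows under 30154 gene names. How the libraries of a group were combined, the genome build and the annotation are not given in the sources used here. Trimmomatic, HISAT2 and Cufflinks 2.2.1 are named in the submitters' processing notes. FPKM values carry no read depth, so no interval or detection limit is given.

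Rows of one name were summed. Entries with at least 1 FPKM in either column were compared by the difference of log2(FPKM + 1), and a change of at least 1 was called. No test was possible with 1 value per group. For list genes, rows that are or contain the Os number were summed. All entries holding a member's number, called list genes and neighbours, and the 3 most similar entries are named. The members and lists were chosen with earlier results of these data known. RefSeq (assembly ASM3414082v1) held 1 of the 6 member names, PBZ1, and no listed Os number. Alternatives were a pseudocount of 0.1, other filters, 3 scalings, single rows, a threshold of 2, and subtraction of an anther share. The calling code was run on simulated anther values with an assumed noise and known changes well above the threshold. That run checks the code only, since the noise of these data is not known. Python 3.11.15, numpy 2.4.6, pandas 2.3.3 and matplotlib 3.10.9 were used.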

Additional observations from a re-analysis of the deposited data

Results flagged for a closer look

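These 7 entries were called in opposite directions in anther and panicle (nrpd1 knockdown minus WT). With 1 value per group the difference between tissues was not tested. The joined row of PR10b, PBZ1 and Os12g0555400 changed by 7.17 in anther and -1.25 in panicle, a difference of 8.42 on the log2 scale.

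Of the defence list, Os11g0592000 differed by 4.86 between tissues (1.91 in anther, -2.94 in panicle). In panicle it passed the minimum of 1 FPKM through WT panicle alone. Os12g0629700 differed by 3.65 (1.06 and -2.59), Os05g0399300 by 3.47 (2.39 and -1.08) and Os03g0663400 by 3.06 (1.04 and -2.02). The panicle call of Os05g0399300 was lost (-0.98) when the anther share was subtracted from WT panicle. Os04g0179200 differed by 3.77 (2.73 and -1.04), but it passed the minimum of 1 FPKM through knockdown anther alone and through WT panicle alone, which largely fixed both calls. Os02g0786500 ran the other way, with a difference of -4.41 (-1.53 in anther and 2.89 in panicle), and its anther call was lost with equal totals (-0.95). It passed the minimum through WT anther alone and through knockdown panicle alone.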

How the results depend on the processing

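No paired analysis was possible because each group has a single column without replicates, and for that reason limma fits and fits without 1 library could not be made. Among the recomputed counts, 58 stayed within 1.5 times the reported value and 14 did not. PR10 and PR1 entries lower in knockdown anther went from 1 to 0 with equal totals and with a threshold of 2. Those lower in knockdown panicle went from 2 to 4 with a pseudocount of 0.1, to 1 with a mean of at least 5 FPKM and to 1 with a threshold of 2. Those higher in knockdown anther went from 4 to 2 when the joined, PR10b and PBZ1 rows were summed into 1 entry, an alternative chosen after seeing the data. Defence list genes higher in knockdown anther went from 13 to 8 with a mean of at least 5 FPKM and to 7 with a threshold of 2. Those lower in knockdown anther went from 5 to 3 both with median centring and after quantile normalization, and to 1 both with equal totals and with a threshold of 2. Those higher in knockdown panicle went from 1 to 2 with a pseudocount of 0.1 and to 0 with a mean of at least 5 FPKM. The filters and thresholds changed counts by their construction, and for the scalings the cause was not tested. Over all entries the share of called entries that were higher in knockdown anther was 29.5% as deposited, 44.6% after quantile normalization, 37.4% after median centring and 79.9% when totals were made equal. In knockdown panicle subtracting 7.33% of WT anther from WT panicle raised that share from 55.4% to 69.2%, and 2 PR10 and PR1 entries were still lower. No change of a PR10 or PR1 entry reversed its sign. In panicle RSOsPR10 passed the threshold with equal totals, at -1.05.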
